A study of Trichoderma asperellum with 9 samples.

Results

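Among the 9396 gene models of Trichoderma asperellum strain Ts93, 64 had higher RNA levels both with 1 mM copper ions and with 0.5 mM BCS than in the control. T. asperellum is a filamentous soil fungus, and the deposited table gives each model's level as FPKM, that is fragments per kilobase of model, scaled to the reads of the library, in 9 RNA-seq libraries. The 3 groups of 3 libraries share the wild type genotype and differ in the treatment, which is copper, BCS or, in the control, neither. The labels do not spell out BCS, and do not give the medium, its own copper content, the time of exposure or whether the libraries of a group are separate cultures, so every spread and p-value below may be technical.

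Copper is both needed and toxic in fungi. It is the cofactor of cytochrome c oxidase, of the copper- and zinc-dependent superoxide dismutase and of secreted laccases, and free copper ions generate reactive oxygen species. In the budding yeast Saccharomyces cerevisiae, low copper activates the transcription factor Mac1, which turns on high-affinity uptake genes, while excess activates Ace1, which turns on metallothionein. BCS is the usual short name of bathocuproine disulfonate, a chelator that binds copper and limits its uptake, and that reading is background rather than a label. None of the identifiers (0 of 9396) matched the 12041 genes of the T. asperellum FT101 reference table, and the table itself names no genes. The models are therefore given by identifier, without role, sequence or position, and no list of copper-handling genes could be filled.

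The 64 models were chosen by their measured levels. Each had a log2 fold of group means, taken on FPKM + 1, of at least 0.5 with copper and of at least 0.5 with BCS, every control value below all 6 treated values, and a mean of at least 5 FPKM in 1 of the treatments. Of the models in the table, 181 met both fold limits, 147 of these met the level limit, and 83 of the 147 were lost because a control library overlapped a treated one. The levels against the control are therefore a description and carry no test, and both folds share the same 3 control libraries. All 64 passed the filter of the statistical fit (at least 1 FPKM in at least 3 libraries, 7857 models), and 62 were at 1 FPKM or more in every library.

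The libraries held between 12335534 and 17142918 reads assigned to models, as recovered from the steps of the FPKM values. The members had between 3 and 29318 reads per library with a median of 367, and 23 members had under 100 reads in some library. Within a group, libraries differed by a chi-square per degree of freedom of 25.9 to 246.4, where counting noise alone gives about 1. Control replicate 1 set the size of the list more than any other library: without it, 239 models met the rule, against 62 to 95 without any 1 of the other libraries. Scaling mattered as well. Median-of-ratios scaling left 44 models and quantile normalization 43, each with 36 of the 64, while rescaling to TPM gave 98, which included all 64. Under each of the 3 scalings 34 of the members met the rule, and 22 did so also with a pseudocount of 0.1 and without each library in turn.

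Most members stood only moderately above the control. The smaller of the 2 log2 folds was below 0.75 in 40 members and at least 1 in 11. With copper the log2 folds ranged from 0.52 to 3.98 with a median of 0.87, and 23 members reached 1. With BCS they ranged from 0.51 to 5.43 with a median of 0.95, and 28 members reached 1. Over all tested models the same medians were 0.11 with copper and -0.07 with BCS. The smaller fold was that with copper in 31 members and that with BCS in 33.

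**Figure D1:**
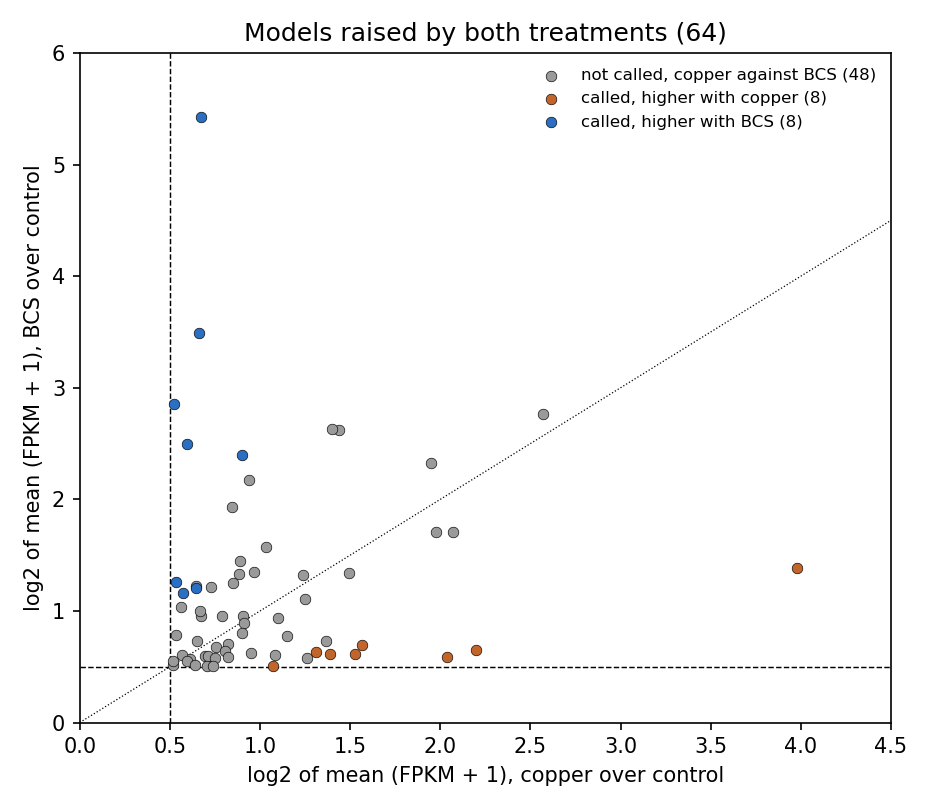
The log2 fold of mean FPKM + 1 with copper (horizontal axis) and with BCS (vertical axis), both against the control, for the 64 members. Dashed lines mark the limit of 0.5 that chose them and the dotted line marks equal folds. The 8 orange members were called higher with copper than with BCS and lie along the lower edge, except Novel02020 at 1.38 with BCS. The 8 blue members were called higher with BCS and lie along the left edge, and the 48 grey members were not called.

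The member with the largest smaller fold was 93-3_5.6A1269, with a length of 1752 bases as recovered from the FPKM values. It had 1.56, 1.17 and 2.76 FPKM in control replicates 1 to 3, 12.2, 23.3 and 11.9 FPKM with copper, and 13.5, 6.42 and 34.7 FPKM with BCS. The treated libraries overlapped each other widely and stood above the control, as the rule demanded. The control values rest on 35 to 81 reads per library. Group means were 1.83 ± 0.831, 15.8 ± 6.48 and 18.2 ± 14.7 FPKM (SD, n = 3 each), a log2 fold of 2.57 with copper and 2.76 with BCS. Model 93-3_5.6A5819 (1032 bases) had 2.94, 3.05 and 3.59 FPKM in the control, 10.7, 15.3 and 19.6 with copper, and 37.4, 10.96 and 11.6 with BCS. Its 3 control values lay within 1 FPKM of each other, and its BCS mean of 19.98 ± 15.1 FPKM depended on replicate 1.

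Levels that overlapped between the treatments were also seen in 93-3_5.6A2318 and 93-3_5.6A2319, which were the only members with adjacent identifier numbers. Model 93-3_5.6A2318 (1377 bases) had 6.11, 5.76 and 4.12 FPKM in the control, 33.4, 21.4 and 22.1 with copper, and 17.0, 22.4 and 19.8 with BCS. Model 93-3_5.6A2319 (603 bases) had 2.76, 1.06 and 1.29 FPKM in the control, 9.55, 4.75 and 5.56 with copper, and 4.70, 4.91 and 7.88 with BCS, from 11 to 71 reads per library. In both models copper replicate 1 was the highest of all 9 libraries. The files do not say whether the numbering follows the genome.

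Further members with both folds of at least 1 varied in level and in evenness. The supplementary model Novel01592 (1223 bases) had 1.177, 0.763 and 2.197 FPKM in the control, 4.84, 14.0 and 6.24 with copper, and 3.64, 5.51 and 11.2 with BCS. Model 93-3_5.6A2392 (1815 bases) had 2.71, 1.90 and 3.45 FPKM in the control, 9.20, 8.46 and 9.27 with copper, and 42.7, 8.87 and 13.4 with BCS. Its copper values were nearly equal, and its BCS mean was carried by replicate 1. In 93-3_5.6A2919 (1245 bases), control replicate 2 stood at 11.01 FPKM beside 3.04 and 2.45 in the other controls, just under the lowest treated value, 11.3 with copper. The other copper values of that model were 23.7 and 13.5 FPKM, and its BCS values were 45.3, 55.8 and 16.6. Model 93-3_5.6A5475 (1971 bases, named after its values were seen) had 3.88, 2.93 and 3.999 FPKM in the control, 10.8, 8.88 and 5.53 with copper, and 17.2, 9.53 and 11.5 with BCS.

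**Figure D2:**
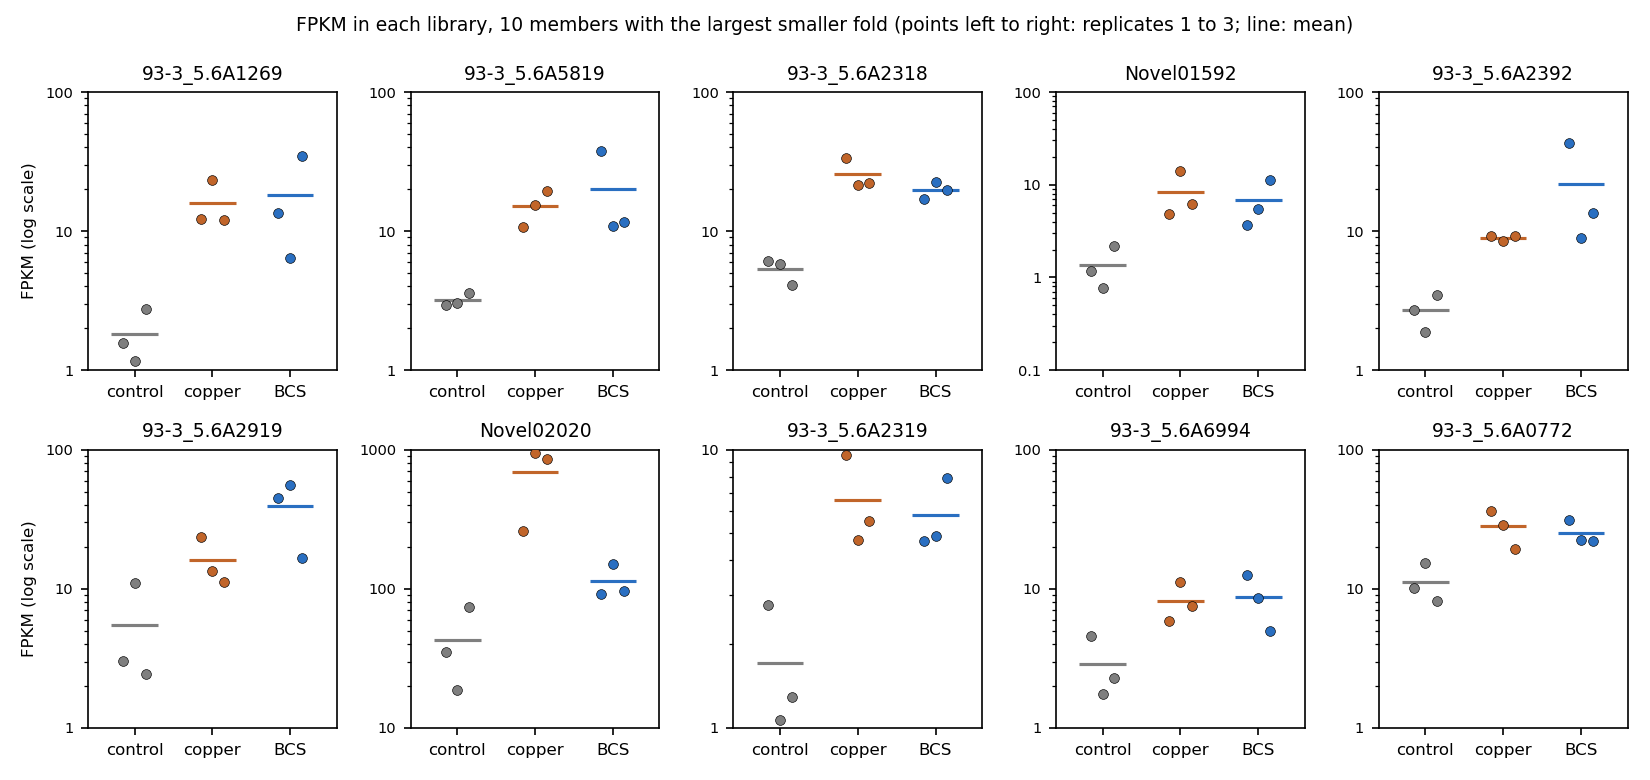
FPKM on log axes in each of the 9 libraries for the 10 members with the largest smaller fold, with points from left to right for replicates 1 to 3 and a line at the group mean. In all 10 panels the 3 control points lie below the 6 treated points, because the rule demanded it. Copper and BCS points overlap in 9 panels and separate in that of Novel02020, at 258.6 FPKM or more with copper and 151.5 or less with BCS.

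Copper and BCS were then set against each other. The rule did not use this difference directly, but it set lower limits on both folds in the same 6 treated libraries. It so left out models that were high in only 1 treatment. Its level limit had to be met in only 1 treatment, which let in members that were weak in the other. The counts and medians of the members are therefore shaped by the rule, and the values over all tested models beside them give the background only. The fit was limma on log2(FPKM + 1) over all 7857 models and 9 libraries, called at a Benjamini-Hochberg adjusted p under 0.05. Of the 64 members, 8 (12.5%) were higher with copper, where 23.9% of all tested models were, and 8 (12.5%) were higher with BCS, where 11.5% were. In all, 25% of members were called, against 35.4% of all tested models. All copper values lay above all BCS values in 12 members (18.8%), against 32.9% of tested models, and the reverse held in 16 members (25%), against 16.7%. The median difference, copper minus BCS, was 0.03 log2 units in the members and 0.24 over all tested models.

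The split of these calls moved with the scaling and with single libraries, in the members and over all tested models. Over all tested models, 1876 were called higher with copper and 906 higher with BCS. Under median-of-ratios scaling, which brings the median of all tested models to 0.00, the split was 3 and 14 in the members and 1407 and 1434 over all. Quantile normalization gave 4 and 15 in the members and 1451 and 1373 over all, and the TPM scale gave 10 and 7 in the members and 2154 and 824 over all. Calls for higher levels with copper numbered 5, 3 and 5 in the members without copper replicates 1, 2 and 3, and 1259, 1302 and 1208 over all tested models. Without BCS replicate 1 they numbered 5 in the members and 1233 over all. Without BCS replicate 2, calls for higher levels with BCS numbered 13 in the members and 887 over all. Those for higher levels with copper then numbered 8 in the members and 2856 over all.

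Called higher with copper in this fit were 8 members with log2 folds of 1.07 to 3.98 with copper and 0.51 to 1.38 with BCS. Among them, 93-3_5.6A4481, Novel01727 and 93-3_5.6A4526 (the last named after its values were seen) failed the rule of membership under at least 1 of the 3 scalings. The widest difference was that of the supplementary model Novel02020, a short model of 495 bases. It had 35.4, 18.7 and 74.5 FPKM in the control, 258.6, 953.2 and 859.5 with copper, and 92.0, 151.5 and 96.5 with BCS. Copper and BCS values did not overlap, and the difference was 2.42 ± 0.54 log2 units (SE, limma adjusted p = 5.4e-03). This was the only one of the 16 called members whose log2 fold was at least 1 in both treatments.

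Model 93-3_5.6A5926 (2886 bases) had 3.65, 2.26 and 2.57 FPKM in the control, 15.8, 19.5 and 14.5 with copper, and 5.87, 4.92 and 4.17 with BCS. The BCS values lay a little above the control and far below copper, with a difference of 1.55 ± 0.22 log2 units (limma adjusted p = 3.2e-04). The BCS mean of this model was 4.99 FPKM, so it met the level limit only through copper and the p-value is a description. The abundant model 93-3_5.6A4481 (648 bases) had 123.5, 124.8 and 85.1 FPKM in the control, 352.3, 490.2 and 533.2 with copper, and 143.0, 138.8 and 221.7 with BCS, a difference of 1.46 ± 0.26 log2 units (limma adjusted p = 1.4e-03). Novel01727 (5013 bases) had 4.96, 5.99 and 3.18 FPKM in the control, 13.2, 17.3 and 15.8 with copper, and 8.99, 6.39 and 7.84 with BCS. Its difference was 0.91 ± 0.24 log2 units (limma adjusted p = 0.012), and the call was lost under median-of-ratios scaling, quantile normalization and without copper replicate 2. The other 4 members higher with copper had differences of 0.57 to 0.86 log2 units.

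Called higher with BCS were 8 members with log2 folds of 0.52 to 0.90 with copper and 1.16 to 5.43 with BCS. Of these, only 93-3_5.6A0601 met the rule of membership under each of the 3 scalings. All 8 were numbered models, and none had a log2 fold of 1 with copper. Model 93-3_5.6A0601 (1914 bases) was the extreme. It had 0.119, 0.213 and 0.499 FPKM in the control, 0.805, 1.62 and 0.692 with copper, and 49.4, 70.1 and 42.4 with BCS. It was the only member below 1 FPKM in all control libraries. The control values rest on 3 to 16 reads and the copper values on 17 to 39, so that its place above the control with copper is a matter of a few reads. The difference between treatments was -4.75 ± 0.25 log2 units (limma adjusted p = 3.1e-07). This model met the level limit only through BCS, so the rule itself favoured the difference and the p-value is a description.

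Model 93-3_5.6A5306 (1080 bases) followed, with 2.10, 1.73 and 1.05 FPKM in the control, 3.75, 3.53 and 2.16 with copper, and 24.5, 33.4 and 27.8 with BCS. Its lowest copper value and its highest control value nearly met, and the difference between treatments was -2.84 ± 0.24 log2 units (limma adjusted p = 9.7e-06). It also met the level limit only through BCS, so its p-value is likewise a description. Model 93-3_5.6A1060, the shortest numbered member at 288 bases, had 6.58, 2.63 and 6.22 FPKM in the control, 7.88, 8.56 and 7.03 with copper, and 65.6, 27.8 and 36.9 with BCS. Control and copper nearly met there, at 6.58 and 7.03 FPKM, and the difference was -2.25 ± 0.34 log2 units (limma adjusted p = 6.0e-04). Model 93-3_5.6A6786 (1884 bases) had 12.9, 11.6 and 16.4 FPKM in the control, 20.7, 21.7 and 20.8 with copper, and 70.3, 75.05 and 98.3 with BCS, a difference of -1.88 ± 0.20 log2 units (limma adjusted p = 5.0e-05). Its copper and BCS values did not overlap, and the rule had set the control below both. The other 4 members higher with BCS had differences between -0.55 and -1.47 log2 units, and the widest of them was 93-3_5.6A2661 (named after its values were seen), at -1.47 ± 0.38 (limma adjusted p = 0.011).

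**Figure D3:**
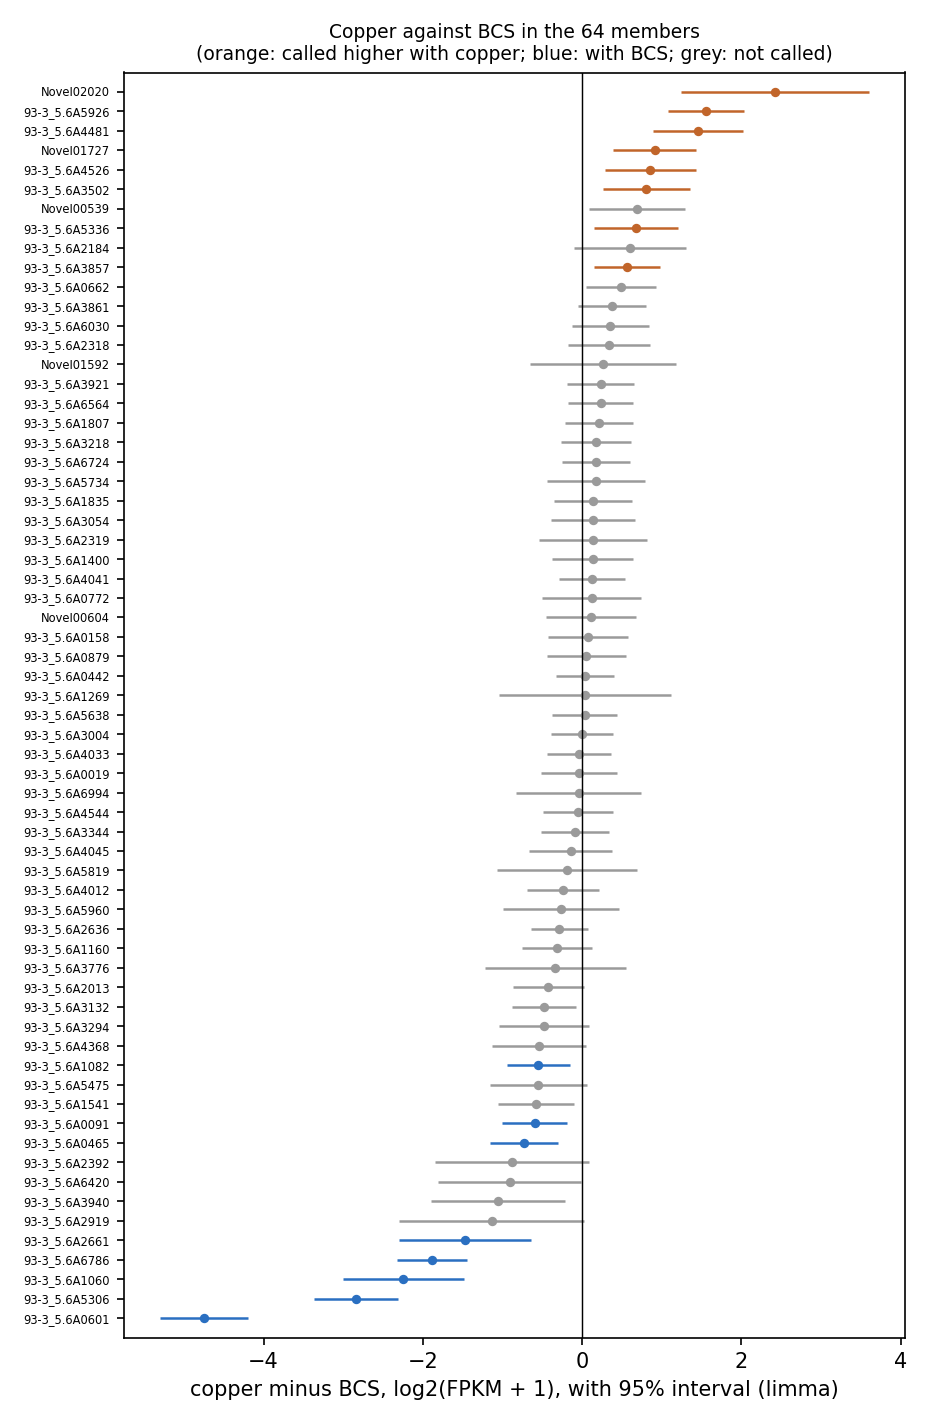
Difference between copper and BCS in log2(FPKM + 1) with its 95% interval from limma, for all 64 members ordered by size. The 8 orange members lie between 0.57 and 2.42, the 8 blue members between -4.75 and -0.55, and the 48 grey members, which were not called, between -1.13 and 0.69.

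The remaining 48 members were not called in either direction, and 6 of them had an unadjusted p under 0.05. A missed call does not show equal levels. In 34 of the 48 the 95% interval of the difference lay within 1 log2 unit on either side of 0, and in 14 it reached further. The same counts were not made over all tested models, so they describe these members only. The 4 most even members among those with both folds of at least 1 were 93-3_5.6A1269, 93-3_5.6A6994, 93-3_5.6A0772 and 93-3_5.6A2319. For 93-3_5.6A1269 the difference was 0.04 log2 units with an interval from -1.04 to 1.11, so a 2-fold difference either way lies within it. Model 93-3_5.6A6994 (1740 bases) had 4.62, 1.74 and 2.30 FPKM in the control, 5.87, 11.2 and 7.48 with copper, and 12.6, 8.59 and 4.95 with BCS, with a difference of -0.04 and an interval from -0.83 to 0.74. Model 93-3_5.6A0772 (1302 bases) had 10.2, 15.3 and 8.21 FPKM in the control, 36.2, 28.7 and 19.3 with copper, and 31.5, 22.3 and 22.1 with BCS, with a difference of 0.12 and an interval from -0.51 to 0.75. For 93-3_5.6A2319 the difference was 0.14 and the interval ran from -0.54 to 0.81. The smallest difference among the 48 was that of 93-3_5.6A3004 (1260 bases, named after its values were seen), with 43.7 ± 2.95 FPKM with copper, 43.7 ± 0.334 with BCS and 30.2 ± 4.39 in the control, and an interval from -0.39 to 0.38.

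The members ranged widely in abundance. Their control means ran from 0.277 to 320.1 FPKM with a median of 11.9, where the median of all tested models was 21.3, and 17 members were below 5 FPKM there while 4 were at or above 100. The most abundant member was 93-3_5.6A4368 (1989 bases), with 431.7, 315.2 and 213.3 FPKM in the control, 526.4, 623.2 and 631.7 with copper, and 768.9, 759.3 and 1095 with BCS. Its copper and BCS values did not overlap, which the rule did not demand, and the difference between treatments missed the threshold (-0.54 ± 0.27 log2 units, limma adjusted p = 0.14). Model 93-3_5.6A3857 (1851 bases) had 182.8, 149.4 and 128.7 FPKM in the control, 336.4, 326.5 and 308.2 with copper, and 243.8, 215.4 and 198.0 with BCS. It was called higher with copper, by 0.57 ± 0.19 log2 units (limma adjusted p = 0.037), and lost that call under 8 of 17 alternatives.

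Members with a control mean below 5 FPKM could meet the level limit only through a treatment in which they were high, so the rule itself sets larger folds there, and the following values are a description. The 17 members with a control mean below 5 FPKM had median log2 folds of 1.31 with copper and 1.58 with BCS, and 7 of the 11 members with both folds of at least 1 were among them. The 26 members from 5 to below 20 FPKM had medians of 0.77 and 0.92. The 21 members at 20 FPKM or more had medians of 0.74 and 0.63. None of these was called higher with BCS, where 11.5% of tested models of all levels were. The share of tested models at this level was not counted, so nothing is read from that count. The median SD over BCS libraries was 0.56 log2 units in the weakest set, 0.24 in the middle set and 0.23 in the strongest. The median number of reads per library was 106 in the weakest set, 289.5 in the middle set and 1201 in the strongest, and the part of counting error in these spreads was not tested.

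Of the 64, 59 were numbered models and 5 (7.81%) supplementary models, such as Novel01592, where 18.3% of tested models were supplementary. Tested models did not have to meet the level limit or the other demands of the rule, so the shares rest on unlike limits. Recovered lengths of numbered members, all divisible by 3, ran from 288 to 2994 bases with a median of 1377. The median was 1185 over the 5822 tested numbered models with at least 500 reads. The 5 supplementary members ran from 495 to 5013 bases with a median of 1223, against 2369 over 1013 such models. Some members lay next in number to models with a large fold in only 1 treatment, picked out after their values were seen. Model 93-3_5.6A0600 stood at means of 4.57, 6.16 and 1204 FPKM in control, copper and BCS, next to 93-3_5.6A0601. Model 93-3_5.6A6785 stood at 1.14, 63.6 and 0.70 FPKM, next to 93-3_5.6A6786, whose highest level was with BCS. Over the 109 tested non-member neighbours in number, a log2 fold past 2 in size in either treatment occurred in 4.59%, against 4.91% of all tested numbered models.

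The order of libraries within a group was not set by the rule directly, but the rule acts on it. Its demand that every control value lie below all 6 treated values turns on the highest control and the lowest treated library. The shares of the members are therefore shaped by the rule, and the shares over all tested models beside them give the background only. BCS replicate 2 was the highest BCS library in 67.6% of all tested models and in 16 of 64 members (25%). BCS replicates 1 and 3 were each the highest in 24 members (37.5%), against 15.1% and 17.3% of tested models. Copper replicate 1 was the highest copper library in 52.7% of tested models and in 21 members (32.8%), while copper replicate 2 was the highest in 31 members (48.4%), against 26.9%. Control replicate 1 was the highest control in 31 members (48.4%), against 31.7%, and so most often set the value that treated libraries had to exceed. BCS replicate 1 stood at least 2-fold above both other BCS libraries, on the FPKM + 1 scale, in 4 members, 93-3_5.6A5819, 93-3_5.6A2392, 93-3_5.6A5960 and 93-3_5.6A3940 (the last 2 named after their values were seen). These are 6.25% of members, against 0.955% of tested models, while BCS replicate 2 stood so in 0 members and 3.86% of tested models. In 93-3_5.6A3940 its 17.0 FPKM stood beside 5.19 and 4.98 in the other BCS libraries, 2.15 to 4.16 with copper and 1.04 to 1.55 in the control. These shares carry no test.

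**Figure D4:**
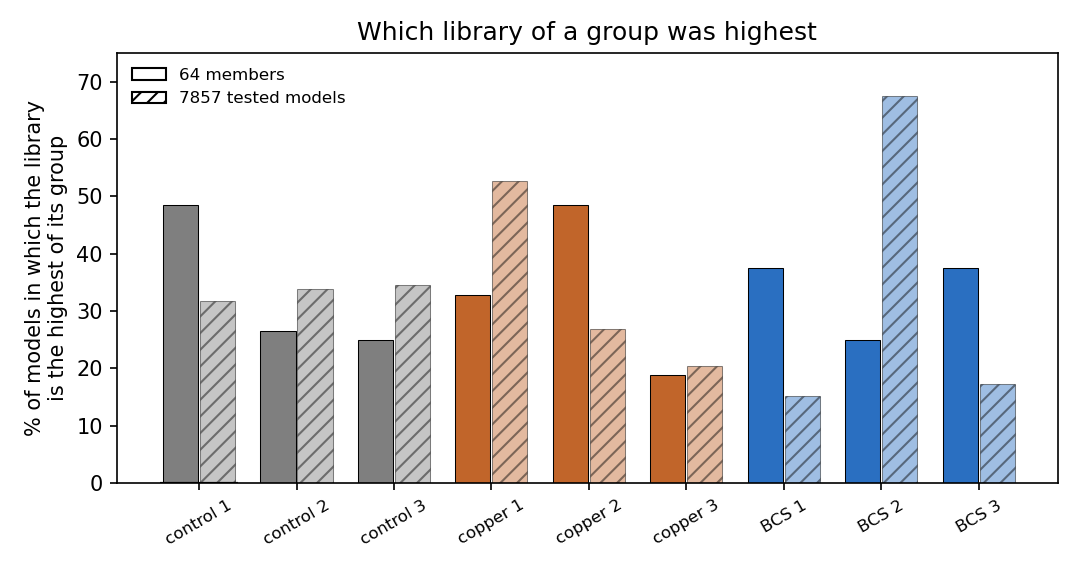
Share of models, in percent, in which each library was the highest of its 3 replicates, for the 64 members (plain bars) and for the 7857 tested models (hatched bars). BCS replicate 2 leads in 67.6% of tested models and in 25% of members; copper replicate 1 leads in 52.7% and 32.8%.

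Summed over the 64 members, levels were 2041, 1704 and 1535 FPKM in control replicates 1 to 3, 3569, 4537 and 4332 with copper, and 3785, 3442 and 3892 with BCS. Relative to the control mean of each model, the median member stood 0.73 to 0.92 log2 units higher in the copper libraries and 0.85 to 0.95 in the BCS libraries. Over all tested models the same medians were 0.06 to 0.20 in the copper libraries, -0.26 and -0.20 in BCS replicates 1 and 3, and 0.13 in BCS replicate 2. The median over all tested models was thus highest in BCS replicate 2 among the BCS libraries, and the median over members was lowest there. The demand that groups separate shaped the member medians as well.

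The limma calls against the control repeat the comparisons that chose the members and are given only for completeness. Of the 64, 33 were called higher with copper, where 6.66% of all tested models were, and 37 were called higher with BCS, where 7.24% were. Both calls were made in 16 members, where 0.267% of all tested models (21 models) had both, and 10 members had neither. The 5 models with both calls that are no members fell short of the level limit. Calls with copper numbered 20 without control replicate 2, and 17, 13 and 16 without copper replicates 1, 2 and 3. Over all tested models such calls numbered 523, and 326, 236, 176 and 181 without the same libraries.

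Values ran on across the limit of the rule. The 3 members just inside were 93-3_5.6A1807 and 93-3_5.6A6564, each with a smaller log2 fold of 0.51, and 93-3_5.6A3857, also at 0.51. Model 93-3_5.6A1807 (489 bases) had means of 77.2, 126.8 and 110.1 FPKM in control, copper and BCS, and 93-3_5.6A6564 (1398 bases) had 31.7, 53.6 and 45.5. Just outside, with every other condition met, were 93-3_5.6A6674 with means of 28.3, 42.3 and 40.4 FPKM, 93-3_5.6A3450 with 24.8, 35.1 and 41.9, and 93-3_5.6A3035 with 21.9, 31.2 and 30.9. Their smaller log2 folds were 0.50, 0.48 and 0.48, the first just below the limit before rounding.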

How the data were processed

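The authors deposited 1 table of FPKM values, 1 column per library without pooling. DESeq 1.18.0, HTSeq 0.6.1, TopHat2 2.0.12 and Bowtie2 2.2.3 were used, per the submitters' processing notes, which state no roles and list a mouse build; the sources used here do not name the genome or annotation. Nearly every value (99.99% to 100% of those above 0 per library, tolerance 0.01 reads) is a whole number of reads divided by model length and library total, from which totals, lengths and reads were recovered (checked on simulated data). The table was tested whole with limma 3.58.1 (R 4.3.3), with trend, on log2(FPKM + 1), all 9 libraries, 1 mean per group, no block, two-sided, Benjamini-Hochberg adjusted within each comparison; this scale understates changes of weak models. Rule folds use means of FPKM, limma differences means of logs, so the 2 can differ. Named members, by rule: the 8 largest smaller folds, the 4 largest called differences each way, the 4 most abundant, the 4 most even, the 3 nearest each side of the limit, the 2 leading supplementary models and adjacent numbers. Members, lists and rules were chosen with earlier results of these data known. Equal replicate numbers did not deviate together, so libraries were not paired.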

Additional observations from a re-analysis of the deposited data

How the results depend on the processing

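Under median-of-ratios scaling, quantile normalization and without single libraries, members higher with copper numbered 3, 4 and 3 to 8, against 8, and members higher with BCS numbered 14, 15 and 6 to 13, against 8. Over all tested models, calls higher with copper numbered 1407, 1451 and 1208 to 2856 under the same settings, against 1876. Calls higher with BCS numbered 1434, 1373 and 606 to 953 over all, against 906. Members called higher in copper against control, 33 as reported, numbered 21 under median-of-ratios scaling, 51 on the TPM scale and 13 to 44 without single libraries; over all tested models these calls numbered 523, 373, 914 and 176 to 805. The list of 64 became 98 models on the TPM scale, 11 with both log2 folds at least 1, 147 without the demand that groups separate, and 62 to 239 without single libraries. Members called higher in BCS against control, 37 as reported, kept within 1.5 times under every alternative run (30 to 46 without single libraries). Over all tested models these calls numbered 569, with 717 under median-of-ratios scaling and 327 to 654 without single libraries. The rule used this comparison, so the steadiness of the member counts is partly built in and carries no test. A fit with the replicate number as a block gave 6 and 7 calls between the treatments in place of 8 and 8. Over all tested models it gave 1628 and 807 in place of 1876 and 906. Correlations of deviations between libraries of the same number ran from -0.28 to 0.21, so the numbers were not taken as pairs. The alternatives for the calls against control were chosen after seeing the data, and a fit to copper and BCS libraries alone gives none of them. In 6 of the 17 alternatives the difference between treatments is unchanged by construction, and only its error and p can move. Of 231 differences of the 21 named members under the other 11, 215 kept their side of the threshold (and, where not called, stayed within 1 SD), 10 lost the call, 2 gained it and 4 moved by more than 1 SD; 1 more call was lost in the 6. The cause of these changes was not tested. Without one library, a group has 2 left and is assumed to vary like the others. The 23 members with under 100 reads in some library rest on few reads there, and the part of counting error was not tested.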
